A study of Mus musculus with 3 samples.

Results

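Heterotrimeric G proteins and the regulators of G protein signalling (RGS) were examined in RNA sequencing libraries of mixed mouse glomerular cells. The members were all protein-coding genes whose symbols name a G alpha, G beta or G gamma subunit or a numbered RGS protein, together with Gpsm1, Gpsm2, Gpsm3, Ric8a, Ric8b and Gnb1l. The rule found 62 genes among the 21303 protein-coding genes of the table: 16 G alpha, 5 G beta, 12 G gamma and 21 RGS genes and 8 other regulators, the last including the RGS anchors Rgs7bp and Rgs9bp. The libraries came from 1 wild type male C57BL/6 mouse, 8 weeks old. Its glomeruli, the filtering units of the kidney, were dissociated to single cells whose cDNA was made in separate wells of a microfluidic system. Wells were typed by qPCR of marker genes, and the cDNA of 15 mesangial and 15 endothelial cells was mixed and split into 3 aliquots. All samples therefore form 1 group, no condition was compared, and each SD is over the 3 aliquots of 1 pool, which measures library construction and sequencing only.

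A heterotrimeric G protein couples a membrane receptor to enzymes and channels inside the cell. The receptor makes the alpha subunit exchange GDP for GTP, alpha parts from the beta-gamma pair, and both act on effectors until alpha hydrolyses the GTP. RGS proteins speed that hydrolysis and so shorten the signal. In the glomerulus, mesangial contraction in response to hormones such as angiotensin II runs through such receptors, mainly by way of the Gq/11 and G12/13 subunits.

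Levels are in FPKM as deposited, that is, fragments for each kilobase of a gene and each 1000000 reads. The reads that underlie them numbered 9141422, 10427635 and 10976563 in aliquots 1, 2 and 3, and the members took 1.43%, 1.43% and 1.42% of them. A count of 3 reads, the most that a listed 0 allows for counting error, was 0.328, 0.288 and 0.273 reads per 1000000. A gene is called detected where no aliquot is below 1 FPKM. The labelled cell types were checked with 6 markers each: all 6 mesangial markers (summed level 4312 to 4356 FPKM over the aliquots) and all 6 endothelial markers (2487 to 2542 FPKM) were detected. All 5 podocyte markers were detected too (272 to 288 FPKM), as were 4 of 5 markers of smooth muscle and renin cells (148 to 161 FPKM). Of the 6 leukocyte, 5 platelet and 3 photoreceptor markers 0 were detected, with leukocyte sums of 0 to 0.191 FPKM and the other sums at 0, and of 4 neuron markers 1 was detected (1.55 to 2.64 FPKM). Other genes known from leukocytes, named after their values were seen, went the other way: Cd53 had 202, 205 and 197 FPKM, Fcer1g 66.1, 68.5 and 69.5 FPKM, Klhl6 41.7, 46.1 and 41.3 FPKM and Clec12b 4.68, 4.78 and 6.11 FPKM. Which cell type made a transcript cannot be read from a mixture, and fewer cells of a type and less RNA per cell cannot be told apart.

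Several of the genes lie side by side in the genome, and 4 promoters of such neighbours are shown because one gene of each pair was far higher than the other. Rgs5 and Rgs4 are separated by 45.7 kb on chromosome 1 and are transcribed from opposite strands, and Gna11 and Gna15 by 4.50 kb on chromosome 10 on the same strand. Each sequence is the 250 bases before the RefSeq start of the gene, read 5′ to 3′ on the gene's strand (GRCm38.p6), with each CG dinucleotide in capitals. The windows are chr1:169655251-169655500 (plus strand) for Rgs5, chr1:169747643-169747892 (minus strand) for Rgs4, chr10:81545163-81545412 (minus strand) for Gna11 and chr10:81524226-81524475 (minus strand) for Gna15.
Rgs5: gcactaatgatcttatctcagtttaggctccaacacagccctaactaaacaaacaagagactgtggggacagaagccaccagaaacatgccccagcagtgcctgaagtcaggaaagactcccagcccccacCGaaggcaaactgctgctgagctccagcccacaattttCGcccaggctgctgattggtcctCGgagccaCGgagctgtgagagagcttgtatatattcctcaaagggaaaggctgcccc
Rgs4: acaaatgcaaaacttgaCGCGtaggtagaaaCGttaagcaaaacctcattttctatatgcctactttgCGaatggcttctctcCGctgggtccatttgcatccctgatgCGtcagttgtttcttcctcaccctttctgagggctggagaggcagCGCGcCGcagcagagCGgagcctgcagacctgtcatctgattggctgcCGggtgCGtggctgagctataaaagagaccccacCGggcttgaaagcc
Gna11: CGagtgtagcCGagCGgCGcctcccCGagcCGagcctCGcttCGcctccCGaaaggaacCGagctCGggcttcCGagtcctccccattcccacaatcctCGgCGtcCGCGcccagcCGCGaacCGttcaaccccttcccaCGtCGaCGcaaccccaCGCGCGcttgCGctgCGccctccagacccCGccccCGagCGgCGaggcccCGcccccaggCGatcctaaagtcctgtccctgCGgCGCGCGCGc
Gna15: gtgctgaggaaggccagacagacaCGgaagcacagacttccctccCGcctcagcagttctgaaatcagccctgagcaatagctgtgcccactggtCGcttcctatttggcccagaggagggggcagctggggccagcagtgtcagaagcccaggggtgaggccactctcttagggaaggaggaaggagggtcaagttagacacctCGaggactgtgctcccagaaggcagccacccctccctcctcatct
The Rgs5 window holds 4 CG dinucleotides and the Rgs4 window 13, while Gna11 has 38 and Gna15 has 4. In the first pair the gene with the higher RNA level has fewer of them, and in the second it has more. The letters TATAAA, searched on both strands, occur in the Rgs4 window and not in the other 3, and in 12.4% of all 32851 promoter windows of the same length.

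Of the 62 genes 31 were detected, 29 were listed at 0 in every aliquot and 2, Gpsm1 and Gnao1, lay between. Over all protein-coding genes 36.4% were detected and 54.6% were listed at 0. The median level was 0.762 FPKM over the 62 genes, against 0 FPKM over all protein-coding genes. Their levels spanned a wide range, with 9 of the 62 genes at or above 100 FPKM on average, beside 5.32% of all protein-coding genes. A few genes made up most of the sum: Gnb1 and Rgs5 together took 72.7% ± 0.0326 of the summed FPKM of all members. By class, 10 of 16 G alpha, 4 of 5 G beta, 5 of 12 G gamma and 9 of 21 RGS genes were detected, with 3 of 8 other regulators.

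**Figure D1:**
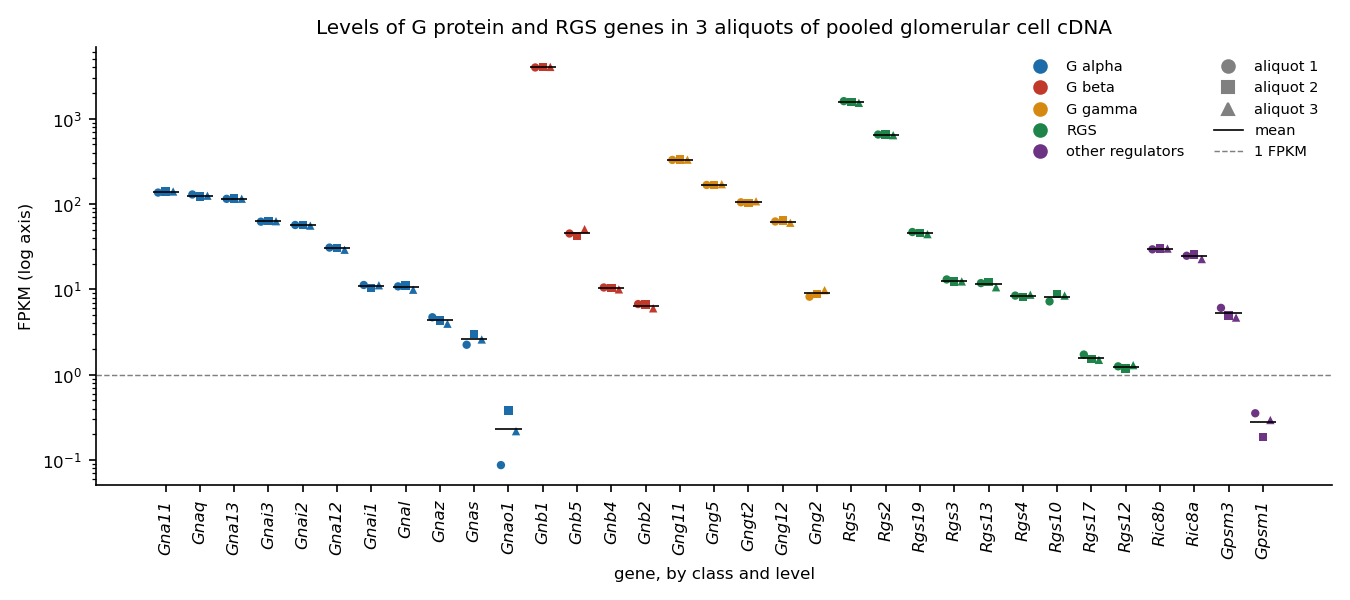
Deposited FPKM (log axis) of the 33 members above 0, by class and level, with one symbol per aliquot, the mean as a bar and 1 FPKM as a dashed line. Gnb1, Rgs5, Rgs2 and Gng11 stand above 300 FPKM, and the aliquots lie close together except for Gnao1 and Gpsm1 below the line.

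By the deposited FPKM the G alpha subunits were led by the Gq/11 and G12/13 families, an order that changes with the gene length used: with the longest annotated transcript as length Gi/o came first (38.1% of the G alpha sum) and Gq/11 after it (35.4%). Gna11 (ENSMUSG00000034781, chr10:81528724-81545190, minus strand, GRCm38) had 137, 140 and 141 FPKM in aliquots 1, 2 and 3, and Gnaq (ENSMUSG00000024639, chr19:16132831-16387463, plus strand) had 130, 123 and 125 FPKM. Both couple receptors to phospholipase C beta. Gna13 (ENSMUSG00000020611, chr11:109362831-109401369, plus strand), which acts on the cytoskeleton through guanine exchange factors of small GTPases, had 115, 117 and 116 FPKM. Its relative Gna12 was lower, with 30.9, 30.5 and 29.2 FPKM. Aliquot ranges of Gna11, Gnaq and Gna13 did not overlap, and the log2 ratio of Gnaq to Gna11 was -0.14 ± 0.060 (SD), that of Gna13 to Gna12 1.94 ± 0.045. The remaining Gq members Gna14 and Gna15, of which Gna15 is known from blood cells, were listed at 0 in each aliquot.

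In the inhibitory Gi/o family, which lowers cyclic AMP, Gnai3 and Gnai2 made up 88.5% ± 0.404 of the sum. Gnai3 had 62.2, 63.9 and 63.0 FPKM and Gnai2 had 56.9, 57.1 and 56.0 FPKM. The ranges did not overlap, although the difference was small: the log2 ratio of Gnai2 to Gnai3 was -0.15 ± 0.022. Gnai1 stood at 11.3, 10.4 and 11.2 FPKM, a log2 ratio of Gnai2 to Gnai1 of 2.37 ± 0.075. Gnaz, the form resistant to pertussis toxin, was low with 4.72, 4.31 and 3.96 FPKM. Gnao1, abundant in brain, rested on 1, 5 and 3 reads (0.0873, 0.383 and 0.218 FPKM) and was not detected. The transducins of rods and cones, Gnat1 and Gnat2, and the taste subunit Gnat3 were listed at 0.

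The stimulatory subunits, which activate adenylyl cyclase, were the lowest family. Gnas, the gene of the general stimulatory subunit, had 2.25, 2.98 and 2.59 FPKM from 39, 59 and 54 reads. Gnal, its relative first known from olfactory neurons, was higher with 10.9, 11.2 and 9.92 FPKM, and made up 80.4% ± 2.17 of the family's sum. Gnal and Gnai1 overlapped in range. The log2 ratio of Gnas to Gnai2 was -4.45 ± 0.20, and -5.48 with the longest transcript as length. The Gnas locus has 24 annotated transcripts, and 21.97% of its exon bases are shared with genes on the other strand, Nespas and Gm20721, both listed at 0; the part of this in the Gnas level was not tested.

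Of the summed G alpha FPKM, Gq/11 took 47.4% ± 0.380, G12/13 26.1% ± 0.140, Gi/o 24.2% ± 0.0999 and Gs 2.37% ± 0.142. The order of the first families depends on the gene length used. The length implied by the deposited values was within 1 base of the mean of a gene's transcripts for 16 of the 33 members with reads, 1 of them by taking a multiple chosen to match it, and within 1 base of the longest for 1. The other members had other lengths, among them Gnai2 with 2177 bases (mean 873, longest 2215) and Gng12 with 799 bases (mean 1367, longest 4248). With reads divided by the longest annotated transcript, the median of all protein-coding genes above 0 moved by -0.75 on the log2 scale and that of these members by -0.83. Gi/o then took 38.1% ± 0.0577, Gq/11 35.4% ± 0.316, G12/13 23.3% ± 0.0790 and Gs 3.23% ± 0.182. Gna11 stayed the highest G alpha gene on that scale, while Gnaq went to the fifth place behind Gna13, Gnai3 and Gnai2. Gs was the lowest family by both lengths.

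**Figure D2:**
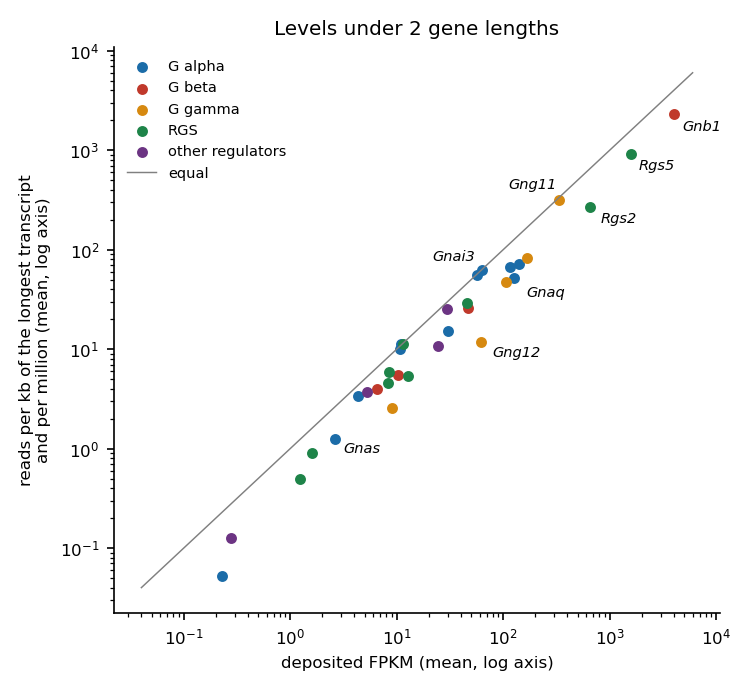
Mean level of each member above 0 with the deposited gene length (x axis, FPKM) and with the longest annotated transcript as length (y axis, reads per kilobase and per 1000000), both log axes, with colour for class and a line where they are equal. Gng12 moves the most, by -2.41 on the log2 scale, and Gnb1, Rgs5 and Gng11 lead their classes on both axes.

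Nearly all G beta transcript was Gnb1. Gnb1 (ENSMUSG00000029064, chr4:155491361-155559269, plus strand) had 3994, 4037 and 4053 FPKM and stood at rank 7 of all protein-coding genes, or 9 with the longest transcript as length. It made up 98.5% ± 0.0825 of the summed G beta FPKM and had 65786, 75864 and 80170 reads. The widespread Gnb2 had 6.74, 6.65 and 6.01 FPKM, and Gnb4 10.5, 10.4 and 10.01 FPKM. The log2 ratio of Gnb1 was 9.29 ± 0.10 to Gnb2 and 8.61 ± 0.049 to Gnb4, and Gnb3, the form of cones and taste cells, was listed at 0.

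Gnb5 differs from the other G beta genes in that its protein pairs with the R7 group of RGS proteins instead of a gamma subunit. It was the second G beta gene with 45.2, 42.6 and 50.8 FPKM. Each of its known R7 partners, Rgs6, Rgs7, Rgs9 and Rgs11, was listed at 0 in every aliquot, and so were the membrane anchors of that group, Rgs7bp and Rgs9bp. Over all protein-coding genes 54.6% were listed at 0 in every aliquot, and the contrast with Gnb5 was not tested. A gene listed at 0 stays at 0 under any length, so the second length is no check of this contrast.

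Of 12 G gamma genes 5 were detected, in the order Gng11, Gng5, Gngt2, Gng12 and Gng2. Gng11 (ENSMUSG00000032766, chr6:4003904-4008445, plus strand) had 329, 333 and 332 FPKM, and took 49.0% ± 0.243 of the class. Gng5 followed with 168, 167 and 171 FPKM, a log2 ratio of Gng11 to Gng5 of 0.97 ± 0.019, or 1.93 with the longest transcript as length. Gngt2, the gamma subunit of cone transducin, had 105, 103 and 108 FPKM, while its retinal partners Gnat2 and Gnb3 and all 3 photoreceptor markers were listed at 0. Other photoreceptor genes went both ways. Sag, the arrestin of rods, had 12.2, 13.6 and 12.2 FPKM, and Grk1, a photoreceptor kinase, 0.206, 0.168 and 0.196 FPKM. Arr3, the arrestin of cones, and Pdc, also known from photoreceptors, were listed at 0 in every aliquot. Gng12 had 62.6, 64.5 and 60.4 FPKM, and the log2 ratio of Gng5 to Gng12 was 1.43 ± 0.063, or 2.82 with the longest transcript, which in Gng12 is far longer than the mean. Gng2, the gamma subunit most used in laboratory assays, had 8.22, 8.85 and 9.81 FPKM. Ranges of neighbours in this order did not overlap, and the order was the same with the longest transcript as length.

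Gng11, Gngt2 and Gngt1 are the gamma subunits that carry a farnesyl lipid, whereas the others carry the longer geranylgeranyl lipid. The farnesylated ones took 64.5% ± 0.0566 of the summed G gamma FPKM, and 78.9% ± 0.106 with the longest transcript as length, with Gngt1 at 0. Gngt2 shares 12.5% of its exon bases with Abi3 on the other strand, which itself had 0.127, 0.112 and 0.265 FPKM. The 7 gamma genes listed at 0 were Gng3, Gng4, Gng7, Gng8, Gng10, Gng13 and Gngt1. For Gng10, a widespread subunit, 72.0% of the exon bases are shared on the same strand with the overlapping gene Gm20503, which was listed at 0 as well. Gng13 shares 51.6% of its exon bases with Chtf18 on the other strand, also listed at 0. In the 31 detected members the shared part was at most 21.97%, and 12 of them share some exon bases, against 10 of the 29 listed at 0; its part in the zeros was not tested.

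The sums of the subunit classes were unequal. G alpha genes summed to 560 ± 1.72 FPKM, G beta genes to 4091 ± 32.4 FPKM and G gamma genes to 677 ± 4.14 FPKM. The beta sum was 7.31 ± 0.0766 times the alpha sum and 6.04 ± 0.0120 times the gamma sum, while the gamma sum was 1.21 ± 0.0107 times the alpha sum. With the longest transcript as length the first 2 ratios were 6.70 ± 0.0709 and 5.07 ± 0.0107, and the last 1.32 ± 0.0115. These are ratios of RNA levels, which do not give protein amounts.

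**Figure D3:**
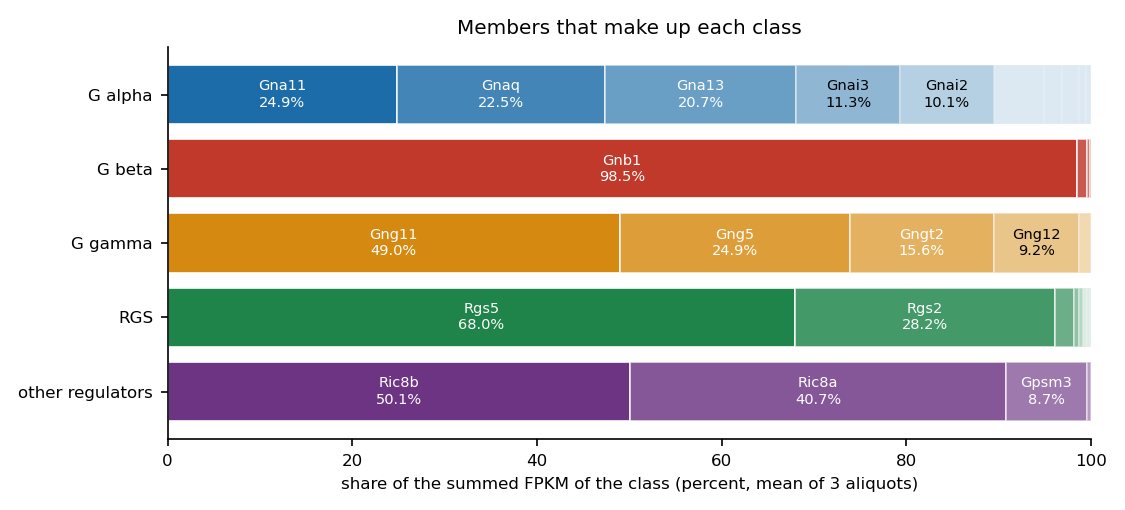
Share of the summed FPKM of each class (x axis, percent, mean of 3 aliquots) taken by each member, with members over 6% labelled. Gnb1 fills almost the whole G beta bar, Rgs5 and Rgs2 the RGS bar, and the G alpha bar is split among Gna11, Gnaq, Gna13, Gnai3 and Gnai2.

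Among RGS genes Rgs5 and Rgs2 were dominant. Rgs5 (ENSMUSG00000026678, chr1:169655501-169695813, plus strand), a marker of pericytes and mesangial cells that limits Gq and Gi signals, had 1609, 1568 and 1537 FPKM. Rgs2 (ENSMUSG00000026360, chr1:143999338-144004161, minus strand), which acts mainly on Gq and is known for its part in blood pressure control, had 654, 657 and 642 FPKM. Together they took 96.1% ± 0.0165 of the summed RGS FPKM, Rgs5 alone 68.0% ± 0.348. The log2 ratio of Rgs5 to Rgs2 was 1.27 ± 0.025, or 2.41-fold, and their ranges were far apart. With the longest transcript as length this log2 ratio was 1.77.

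The other R4 genes, the small RGS proteins to which Rgs5 and Rgs2 belong, were low or listed at 0. Rgs3 had 13.1, 12.4 and 12.4 FPKM, Rgs13 had 11.9, 12.2 and 10.6 FPKM and Rgs4 had 8.46, 8.11 and 8.67 FPKM. Rgs5 exceeded Rgs3 by a log2 ratio of 6.96 ± 0.022 and Rgs4 by 7.54 ± 0.066. Rgs13 is known mainly from B cells and mast cells. Genes of those cells, picked after the levels were known, gave 4 of 4 B cell genes (Ms4a1, Cd79b, Cd22 and Pax5) listed at 0 and 0 of 5 mast cell genes detected, with Cpa3 at 0.452, 0.264 and 0.816 FPKM, Kit at 0, 0.0453 and 0 FPKM, and Ms4a2, Fcer1a and Mcpt4 at 0. Fcer1g, which mast cells and other leukocytes share, was among the genes detected, as given above; the part of such cells in the Rgs13 level was not tested. The 5 R4 genes listed at 0 were Rgs1 and Rgs18, known from blood cells and platelets, Rgs8, Rgs16 and Rgs21.

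Outside R4, Rgs19 was the highest RGS gene, with 47.1, 45.6 and 44.5 FPKM. Rgs19 belongs to the RZ group, acts on Gi family subunits and binds the adaptor Gipc1. It exceeded its relative Rgs17 (1.72, 1.53 and 1.49 FPKM) by a log2 ratio of 4.85 ± 0.072, and Rgs20 was listed at 0. In the R12 group Rgs10 had 7.23, 8.92 and 8.47 FPKM from 32, 45 and 45 reads, and Rgs12 had 1.25, 1.19 and 1.30 FPKM, a log2 ratio of 2.71 ± 0.19. Rgs4 and Rgs10 overlapped in range. Rgs14 and Rgs22 were listed at 0, so that 9 of 21 RGS genes were detected and 12 were at 0.

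The remaining regulators were led by the Ric8 proteins, which help newly made alpha subunits to fold. Ric8b, which serves the stimulatory subunits, had 29.5, 30.2 and 30.1 FPKM. Ric8a, which serves the Gi, Gq and G12/13 subunits, had 24.8, 25.7 and 22.7 FPKM. The log2 ratio of Ric8a to Ric8b was -0.30 ± 0.097, and -1.26 with the longest transcript as length, and Ric8b was higher in each aliquot. Of the GoLoco proteins, which hold alpha subunits in the GDP state, Gpsm3 was detected with 6.08, 4.93 and 4.68 FPKM, Gpsm1 was below 1 FPKM with 0.354, 0.186 and 0.295 FPKM from 5, 3 and 5 reads, and Gpsm2 was listed at 0. Gpsm3 shares 16.9% of its exon bases with Pbx2 on the same strand. Gnb1l, a protein that resembles G beta in sequence, was listed at 0. No ratio was given for the pairs Gng10 and Gng5, Rgs5 and Rgs16, and Gpsm2 and Gpsm1, since each holds a gene at 0.

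Neighbouring genes were then compared, since members of these families arose in part by duplication. Of 13 pairs of consecutive members with at most 1 protein-coding gene between them, 8 had a detected gene beside one listed at 0, 2 had both genes detected and 3 had both at 0. All 5 pairs of G alpha genes were of the first kind: Gnai1 beside Gnat3 (245 kb apart), Gnai2 beside Gnat1 (39.1 kb, with Slc38a3 between), Gnai3 beside Gnat2 (5.85 kb), Gnaq beside Gna14 (48.3 kb) and Gna11 beside Gna15. The gamma pair Gng11 and Gngt1, 6.47 kb apart, also had a detected gene beside one at 0. Rgs9, at 0, lay 64.7 kb from Gna13. On chromosome 1 a row of 5 RGS genes over 776 kb held Rgs2 and Rgs13 detected and Rgs1, Rgs21 and Rgs18 at 0, and Rgs8 and Rgs16 next to each other were both at 0. Rgs5 and Rgs4 were both detected and differed 187-fold. The pairs follow from gene order alone, some genes such as Rgs13 are in more than 1 pair, and no test was made. Neighbouring pairs of all protein-coding genes were not counted, so no share over the genome stands beside these counts. Of the 62 members themselves, 31 were detected and 29 were at 0.

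**Figure D4:**
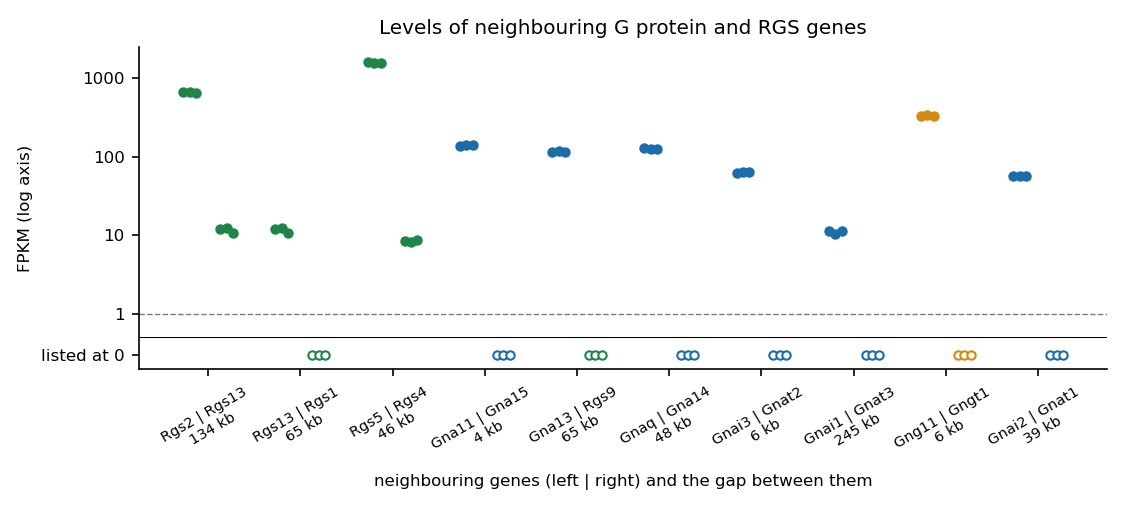
FPKM (log axis, with genes listed at 0 as open symbols under a line) of neighbouring members, the higher gene of each pair on the left, one point per aliquot, with the gap between the genes in kilobases and 1 FPKM as a dashed line; pairs with both genes at 0 are left out. The 5 G alpha pairs each have a filled group beside an open one, and Rgs5 with Rgs4 and Rgs2 with Rgs13 are the pairs with both genes above the line.

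Promoter windows of RefSeq were found for 47 of the 62 members, 37 of them with a single window. The 20 detected members with 1 window had a median of 19 CG dinucleotides in 250 bases (0 to 44), and the 16 listed at 0 had a median of 6 (2 to 22). The median over all promoter windows was 6, and these were not split into detected genes and genes at 0. Single genes depart from this: Rgs5, the second highest member, has 4, as its printed window shows. Of windows that are not printed, that of Rgs13 has 0 and that of Gnao1, not detected, has 36. The letters TATAAA on either strand were in 2 of the 20 windows of detected members and in 2 of the 16 of members at 0, beside the 12.4% of all windows.

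Other genes of the pathway were taken from 8 lists of 52 genes, of which 23 were detected, to be read against the 36.4% of all protein-coding genes. Of 4 phospholipase C beta genes, the effectors of Gq, 2 were detected: Plcb1 with 108, 111 and 113 FPKM and Plcb4 with 22.7, 24.0 and 21.5 FPKM. Plcb3 had 0.807, 1.21 and 1.34 FPKM and missed the limit in aliquot 1. Of 6 guanine exchange factors driven by G proteins 4 were detected, led by the G12/13 effector Arhgef12 with 55.01, 57.1 and 57.3 FPKM and Kalrn with 32.3, 32.5 and 34.1 FPKM, while Arhgef11 had 0.402, 0.274 and 0.353 FPKM and Arhgef25 had 0.196, 0 and 0 FPKM. Adenylyl cyclases, which include the effectors of Gs and Gi, stood lower: 1 of 10 was detected, Adcy6 with 6.04, 6.26 and 5.81 FPKM. Adcy4 had 0.762, 0.835 and 0.714 FPKM, Adcy1 a single value of 0.0116 FPKM in aliquot 2, and the other 7 were listed at 0.

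Of 4 genes of potassium channels opened by beta-gamma 1 was detected, Kcnj5 with 5.28, 5.08 and 5.59 FPKM. Of 4 genes of PI3 kinases that respond to beta-gamma 1 was detected, Pik3cg with 1.77, 1.20 and 1.56 FPKM, and the rest of both lists was at 0. Beta-gamma also acts on phospholipase C beta, given above, and on the receptor kinase Grk2, which had 3.04, 2.86 and 2.72 FPKM. Of 10 receptor kinases and arrestins, which end receptor signalling, 4 were detected. By mean deposited FPKM they were led by Arrb1 with 14.7, 12.4 and 13.7 FPKM and then Sag at the level given above. With the longest transcript as length this order was reversed, with means of 5.15 for Sag and 4.66 for Arrb1. Grk6 had 1.07, 1.32 and 0.930 FPKM and so was under 1 FPKM in aliquot 3, Grk1 was below 1 FPKM and Grk3 had 0, 0.0147 and 0.0279 FPKM. Other proteins with a fold like RGS were detected for 5 of 6, led by Akap10 with 41.7, 39.6 and 41.2 FPKM and Snx25 with 31.0, 33.8 and 33.5 FPKM, and Axin1 had 0.267, 0.0935 and 0.178 FPKM. Of 8 folding and non-receptor partners 5 were detected. By the deposited FPKM they were led by the Gi-binding protein Nucb1 with 140, 131 and 143 FPKM. Pdcl, which helps to assemble beta with gamma, followed with 69.0, 65.4 and 64.6 FPKM. Gipc1, the partner of Rgs19, had 28.5, 28.4 and 31.3 FPKM. The lead of Nucb1 depends on the gene length used. With the longest transcript as length its mean was 14.8, behind Pdcl with 40.0 and Gipc1 with 31.2.

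To see which genes differed between aliquots beyond counting error, the reads of each gene were set against the depths in a chi-square test, with Benjamini-Hochberg adjustment over all 9120 genes of 30 reads or more. Of the 31 members tested 1 was called, Rgs5, beside 1.09% of all genes tested. Its reads were 35454, 39409 and 40665, and its level was highest in aliquot 1 (adjusted p = 9.38e-07 by the chi-square test across genes). Of all genes tested, 0.702% were called and highest in that aliquot. Its spread was small all the same, a coefficient of variation of 2.30%. In the same chi-square test the call ended without aliquot 1 (adjusted p = 0.46) and without aliquot 3 (adjusted p = 0.0511), and calls among all genes fell to 2 without aliquot 1. Calls become likelier with depth: 10.5% of genes with at least 10000 reads were called, a class that holds 4 members, beside 0.796% of those with 1000 to 10000 reads and 0.305% of those with fewer, where 0 of 15 and 0 of 12 members were called. Gnb1, with more reads than Rgs5, was not called (coefficient of variation 0.766%, adjusted p = 0.283 by the same chi-square test). Over the 31 detected members the coefficient of variation had a median of 3.17% and ran from 0.566% for Gng11 to 14.3% for Gpsm3, beside a median of 4.42% over detected protein-coding genes.

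**Figure D5:**
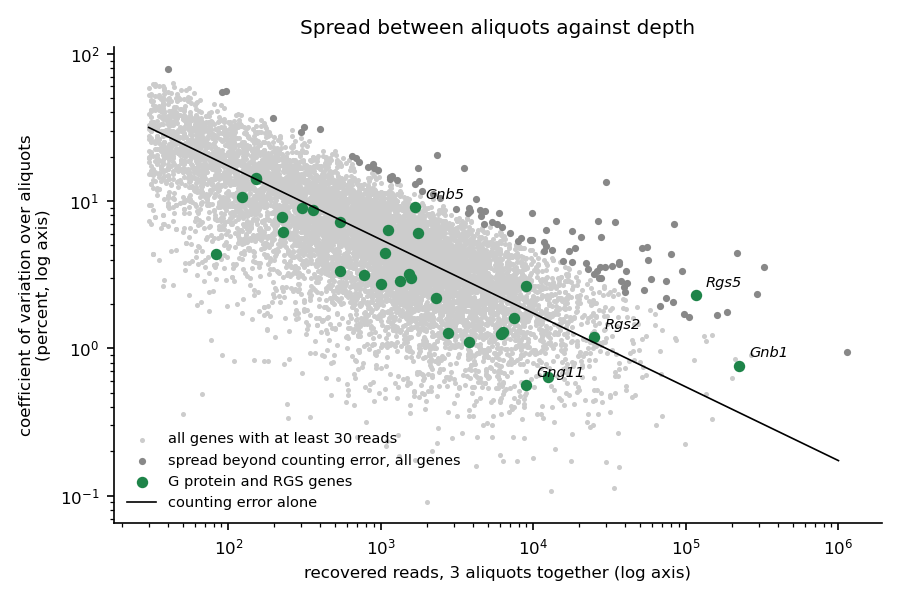
Coefficient of variation over the 3 aliquots (percent, log axis) against recovered reads (log axis) for all 9120 genes with at least 30 reads, genes called beyond counting error and the members, with a line for counting error alone. Rgs5 at 2.30% is the member among the called genes, and Gnb1, further right, lies at 0.766%.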

How the data were processed

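RNA from single glomerular cells was copied to cDNA per the labels' protocols, and the pooled cDNA was sequenced as 3 libraries. As deposited by the authors, each value is in FPKM, one column per aliquot, with no normalization between aliquots stated. The submitters' processing notes name TopHat2 2.0.12, HTSeq 0.6.1 and the GRCm38 genome; the annotation release, the gene length definition and whether strand was used were not given in the sources used here. Gene symbols were taken from a name table that matched 37607 of 39179 Ensembl identifiers, and biotypes, coordinates, transcript lengths and shared exon bases from GENCODE M21 on GRCm38, which may differ from the authors' annotation.

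FPKM steps at low values gave each library's total, and for each of the 11142 genes above 0 the smallest gene length that made its 3 read numbers whole within 0.0001; for 374 genes a multiple of it within 1 base of the mean transcript length was taken. Recovered reads made up 96.7% of the totals on average. A common factor of a gene's read numbers cannot always be resolved. Reads of amplified cDNA are not independent molecules, so the chi-square test (scipy 1.17.1, threshold 0.05) and the limit of 3 reads cover counting error only. The steps were tested on simulated reads of genes whose lengths were all set to the mean transcript length. Other lengths, which 17 of the 33 members with reads had, were not covered by that test. No count model across groups was possible with 1 group, and no level was tested.

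Members, lists and pairs were chosen with earlier results of these data known. Per-aliquot values are given for the 3 highest members of G alpha, G gamma and RGS, all G beta genes, the highest of each subfamily, both genes of 18 pairs and members above 0 but not detected, and of each pathway list for the 2 highest detected genes and those above 0 but not detected; further genes were named after their values were seen. A listed 0 is reported as listed, not as absence. Alternatives were other detection limits, the longest transcript as length, read shares, pseudocounts of 0.1 and 1 FPKM, read minimums of 10 and 100, totals without mitochondrial genes and leaving out each aliquot.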

Additional observations from a re-analysis of the deposited data

Results flagged for a closer look

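Gng5-ps, a processed pseudogene row on chromosome 16 that matched the name rule but is not protein-coding, had 1, 3 and 5 reads in aliquots 1, 2 and 3 (mean 0.859 FPKM). Its 9 reads, 0.295 per 1000000 over the aliquots together, exceeded the 0.0982 per 1000000 that 3 reads give. How reads were divided between Gng5 and this near-copy was not tested; Gng5 itself had 1827, 2081 and 2240 reads. Gng2-ps1, the other such row, was listed at 0.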

How the results depend on the processing

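The count of 31 detected members was 26 with a limit of 5 FPKM, 29 with the longest transcript as length, which took Rgs17 and Rgs12 below 1, and 31 under the other detection limits and without any aliquot; class counts stayed within 1.5 times under each. The shares of the leading genes moved with the length used. With the longest transcript as length the share was 20.5% for Gna11 in G alpha, 68.6% for Gng11 in G gamma, 73.8% for Rgs5 in RGS and 63.8% for Ric8b among other regulators. In reads with no length it was 17.04% for Gna11, behind both Gna13 and Gnaq, 98.7% for Gnb1, 46.4% for Gng11, 80.2% for Rgs5 and 68.2% for Ric8b. Leaving out low members or 1 aliquot moved none of the 5 shares by more than their SD. The 15 log2 ratios kept their sign with the longest transcript, with either pseudocount and without any aliquot. By more than their SD, 14 moved with the longest transcript, 8 with a pseudocount of 1 FPKM and 1 with 0.1 FPKM. Ratios were not taken in reads with no length, where Gnaq (8955 in all) stood above Gna11 (7497). The count of members beyond counting error, 1, was the same with minimums of 10 or 100 reads and with totals without mitochondrial genes, and ranged from 0 to 1 over the fits without 1 aliquot; all genes called numbered 2, 98 and 65 without aliquots 1, 2 and 3, against 99 with all. Members with few reads, such as Gnao1 (9 in all) and Gpsm1 (13), are limited by depth. No paired analysis was possible because the samples form 1 group.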
